A study of Mus musculus with 10 samples.

Results

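Gene expression was measured in subcutaneous islet grafts retrieved late (days 7 and 10) and early (days 1 and 3) after transplantation, and the 4 late arrays were compared with the 4 early ones, 8 of the 10 arrays of the series. Each set of 4 held a PSI-F and a PSI graft of each of its days, with 1 array per condition. A PSI graft was a clotted plasma scaffold carrying rat (Wistar) pancreatic islets, and a PSI-F graft also carried cultured skin fibroblasts of nu/nu mice. All recipients were 6-week-old male Swiss nu/nu mice, which lack a thymus, had been made diabetic with streptozotocin, and received the graft under the abdominal skin, directly on the muscle. The other arrays, biopsies of non-transplanted Diabetic and Control mice (day 0), serve only as levels to compare with. The methods name 2 mice per condition and an RNA chosen for its quality, and do not say whether an array held 1 mouse or a pool. Nothing says that the days of a set are biological replicates, so the p-values below measure the spread over days, graft types and mice together.

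Tissue around an implant passes from acute inflammation to repair. Neutrophils and inflammatory monocytes arrive first, drawn by chemokines and complement, and acute phase genes are switched on by interleukins acting through C/EBP and STAT factors. Later, macrophages change their state, cells presenting antigen on MHC class II gather, and fibroblasts deposit collagen.

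A probe set was called when its adjusted p from limma lay under 0.05. The 407 called, out of 45037 (0.904%), comprised 63 higher (0.140%) and 344 lower (0.764%) in late than in early grafts, and 165 of them differed at least 2-fold (0.366%). When each of 18193 genes was represented by its brightest probe set, 154 were called (0.846%), 32 higher (0.176%) and 122 lower (0.671%), and 17.1% of genes had an unadjusted p under 0.05. The lower genes differed by a median of -1.09 on the log2 scale, with 68 at least 2-fold and 20 at least 4-fold lower, and the higher genes by a median of 0.89, with 13 at least 2-fold higher. The median difference of all genes was 0.01. In all 154 called genes the 4 late arrays lay entirely on one side of the 4 early arrays, and so they did in 6.52% (late below early) and 4.13% (late above early) of all genes, or 6.17% and 3.66% of probe sets. Of 111 other probe sets of the lower genes, 93 differed in the same direction and 29 were called, and of 26 others of the higher genes these counts were 22 and 1. A further 136 genes were called on a dimmer probe set only.

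**Figure D1:**
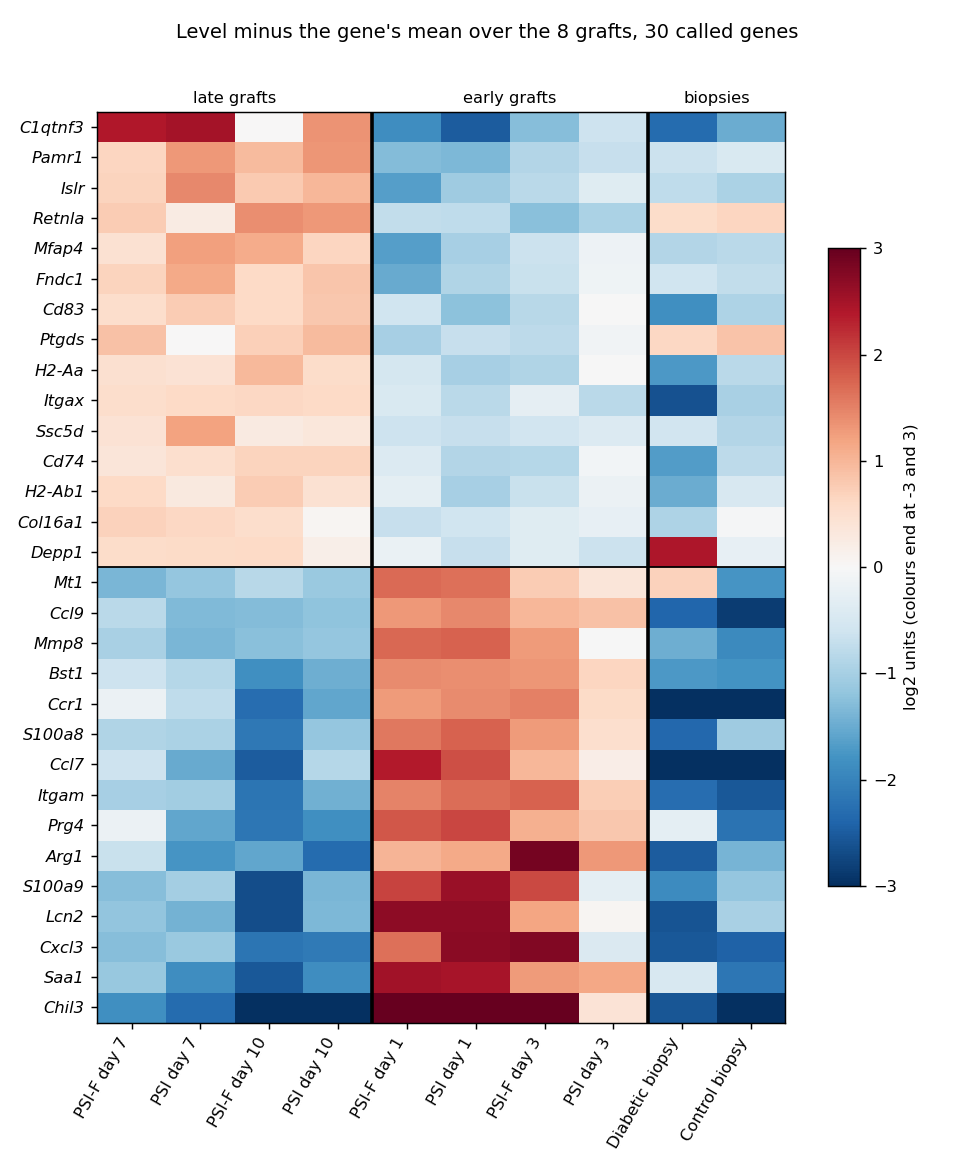
Levels of the 15 genes with the largest positive and the 15 with the largest negative difference among the called genes, each minus the mean of that gene over the 8 grafts, in log2 units (red above, blue below that mean), with late arrays on the left, early arrays in the middle and the biopsies on the right. The 4 late arrays stand on one side of the 4 early arrays in every row, and Chil3 has the largest difference (-5.52).

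The number of calls depended on single arrays and days. Leaving out 1 array gave 269 calls without PSI-F of day 7, 77 without PSI of day 7, 68 without PSI-F of day 10 and 51 without PSI of day 10, and 81 without PSI-F of day 1, 31 without PSI of day 1, 90 without PSI-F of day 3 and 523 without PSI of day 3. Without both arrays of day 1, 1 probe set was called and none of the 154 genes, and the 1 call was a lower one. With both grafts of a day averaged (2 days against 2), limma called 0 probe sets, with 4018 at an unadjusted p under 0.05. Of the 154 genes, 13 were called in each of the 8 fits with 1 array left out: Saa1, Itgam, Ccl9, Ifitm1, Ccl6, Tlr4, Gla, AI467606, Cebpd, Cytip and Gpr35, which were lower, and Pamr1 and Itgax, which were higher. None of the 154 genes changed its direction under any of the alternatives tried. Their late and early arrays did not overlap, so leaving out arrays or days, averaging days or using each graft type alone could not reverse it. Of the other alternatives, only cyclic loess, median centring and the mean of a gene's probe sets altered the differences themselves.

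The control RNAs of the arrays differed between the same sets. The poly-A controls are bacterial transcripts added before labelling, and 22 of their 24 probe sets were brighter on all late than on all early arrays. The largest gap was that of dap 5′, which lay between 6.52 and 7.17 on late and between 3.69 and 4.54 on early arrays. Of 18 probe sets of the hybridization controls, added later, 15 were dimmer on all late arrays. The median difference of all 18 was -0.48. The 3′ minus 5′ gap of dap was 1.49 to 1.70 on late and 2.99 to 3.57 on early arrays. That of the mouse Actb message was 0.52 to 0.76 on late and 0.45 to 0.72 on early arrays, which overlap, and that of Gapdh was 0.05 to 0.29 on late and -0.01 to 0.06 on early arrays. Handling and phase of the graft cannot be told apart in this design, and the controls were left out of the tests.

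**Figure D2:**
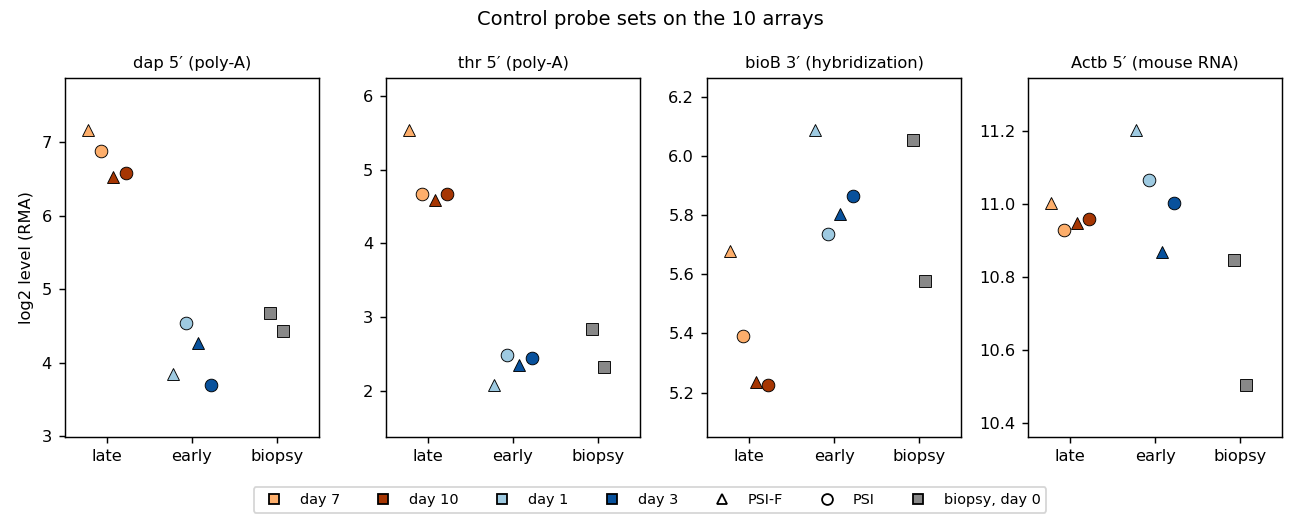
Log2 levels of 4 control probe sets on the late, early and biopsy arrays, where each point is 1 array. The 5′ probe sets of dap and thr lie higher on all 4 late arrays (4.59 to 5.55 for thr) than on the early arrays (2.07 to 2.48) and the biopsies. The bioB probe set lies lower on late (5.22 to 5.68) than on early arrays (5.74 to 6.09) and overlaps the biopsies (5.58 to 6.06). The mouse Actb probe set overlaps between late and early arrays.

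Promoter sequences are shown for 7 called genes whose level differed between late and early grafts and whose known regulators have simple binding motifs. They are the 250 bases before the start site (RefSeq, GRCm38.p6), 5′ to 3′ on the gene's strand, with matches on either strand in capitals. In the pair of metallothioneins, Mt2 (chr8:94172368-94172617, plus strand) and Mt1 (chr8:94178839-94179088, plus strand), the capitals mark TGCNCNC, the core of the metal response element. In the serum amyloid A pair, Saa1 (chr7:46742981-46743230, minus strand) and Saa2 (chr7:46751583-46751832, plus strand), they mark TTNNGNAA, a form of the C/EBP site. In the chemokines Cxcl3 (chr5:90785851-90786100, plus strand) and Ccl9 (chr11:83578637-83578886, minus strand) they mark the kappa B site of NF-kappa B, searched as GGG, any 2 bases and TTTCC, and in H2-Aa (chr17:34287824-34288073, minus strand) CCAAT, known as the Y box in MHC class II promoters.
Mt2: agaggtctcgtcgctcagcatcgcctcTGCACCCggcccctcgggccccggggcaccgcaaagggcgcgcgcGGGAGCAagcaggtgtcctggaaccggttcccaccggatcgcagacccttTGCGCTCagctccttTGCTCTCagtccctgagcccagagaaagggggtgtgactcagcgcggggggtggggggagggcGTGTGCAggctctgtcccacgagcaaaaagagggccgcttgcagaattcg
Mt1: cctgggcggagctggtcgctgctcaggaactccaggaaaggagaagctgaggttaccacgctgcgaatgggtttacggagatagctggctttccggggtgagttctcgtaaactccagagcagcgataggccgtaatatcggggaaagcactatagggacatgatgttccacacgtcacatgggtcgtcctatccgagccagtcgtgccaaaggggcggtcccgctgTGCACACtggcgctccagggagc
Saa1: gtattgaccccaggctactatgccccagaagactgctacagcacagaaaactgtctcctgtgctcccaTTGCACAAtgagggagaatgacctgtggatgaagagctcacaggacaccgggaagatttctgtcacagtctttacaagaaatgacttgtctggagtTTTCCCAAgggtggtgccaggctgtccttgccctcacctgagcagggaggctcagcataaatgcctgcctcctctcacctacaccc
Saa2: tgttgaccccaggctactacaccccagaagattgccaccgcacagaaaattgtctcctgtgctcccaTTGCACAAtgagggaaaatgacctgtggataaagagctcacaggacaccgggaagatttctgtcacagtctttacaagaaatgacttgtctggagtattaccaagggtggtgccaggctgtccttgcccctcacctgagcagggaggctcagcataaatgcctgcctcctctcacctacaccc
Cxcl3: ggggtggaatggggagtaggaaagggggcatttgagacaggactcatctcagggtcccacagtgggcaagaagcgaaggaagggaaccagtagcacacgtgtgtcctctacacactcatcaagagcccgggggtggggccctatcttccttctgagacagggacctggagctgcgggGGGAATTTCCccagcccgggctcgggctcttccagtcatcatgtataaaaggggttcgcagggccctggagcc
Ccl9: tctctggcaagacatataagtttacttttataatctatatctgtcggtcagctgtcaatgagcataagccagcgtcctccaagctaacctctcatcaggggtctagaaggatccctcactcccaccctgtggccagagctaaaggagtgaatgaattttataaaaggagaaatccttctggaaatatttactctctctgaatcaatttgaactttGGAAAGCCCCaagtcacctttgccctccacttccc
H2-Aa: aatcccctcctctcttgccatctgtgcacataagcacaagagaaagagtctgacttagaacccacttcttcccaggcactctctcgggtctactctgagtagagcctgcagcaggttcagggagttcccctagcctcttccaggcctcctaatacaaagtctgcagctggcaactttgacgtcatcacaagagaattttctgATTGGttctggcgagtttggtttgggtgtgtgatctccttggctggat
Mt2 held 5 matches and Mt1 held 1 of a core found at least once in 44.4% of 32851 promoters of this length, and at least 3 times in 4.65%. The counts depend on the RefSeq start sites used, and bases outside the printed stretches were not searched, so further elements of these genes may be missed. Saa1 held 2 matches and Saa2 held 1 of a motif present in 36.8% of promoters, and the match they share starts 182 bases before the start in Saa1 and 183 in Saa2. The kappa B motif was present in 1.41% of promoters, and its match starts 73 bases before the start in Cxcl3 and 35 in Ccl9. The CCAAT box, present in 33.8%, lies 48 bases before the start of H2-Aa, on the other strand. Matches within a promoter do not overlap, and overlap between different motifs was not looked at. Among the called genes with a promoter in the table, the kappa B motif was found in 5 of 98 lower and 0 of 23 higher genes. The metal response core was found in 52 of 98 lower and 18 of 23 higher genes, the C/EBP motif in 48 and 11, and CCAAT in 30 and 8. A gene was counted if any of its promoters matched, so these counts cannot be set directly against the shares of promoters. A match is a description of these letters and no evidence of binding.

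Neutrophil and acute phase genes were among those with the largest negative differences. In counts of list members here and below, fell means called lower and rose means called higher, as were 0.671% and 0.176% of all genes. Of 20 measured neutrophil genes, 4 fell and none rose (median -1.15). Of 14 acute phase and complement genes, 5 fell and none rose (median -1.07). Lcn2 was counted among the called genes of both lists. In the sentences that follow, values are log2 levels in the order PSI-F and PSI of day 7, then PSI-F and PSI of day 10 for late grafts, and PSI-F and PSI of day 1, then PSI-F and PSI of day 3 for early grafts. In bulk tissue, fewer cells of a type and less RNA per cell cannot be told apart.

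S100a8, which with S100a9 forms the calprotectin of neutrophil and monocyte cytoplasm, had levels of 8.12, 8.08, 6.87 and 7.86 in late grafts, against 10.59, 10.78, 10.30 and 9.52 in early grafts. It fell by 2.57 ± 0.33 (SE, n = 4 each, limma adjusted p 0.0172). S100a9 had 6.43, 6.70, 5.04 and 6.35 in late grafts, against 9.75, 10.31, 9.69 and 7.42 in early grafts, and fell by 3.16 ± 0.59 (adjusted p 0.046). In both genes the early PSI graft of day 3 was the lowest of its set, and the late PSI-F graft of day 10 was the lowest of all. The biopsy levels of S100a8 were 6.67 in Diabetic and 7.95 in Control, so that 2 late arrays lay between the biopsies and 2 above both. Lcn2, the lipocalin that withholds iron from bacteria, had 6.21, 5.97, 4.72 and 6.02 in late grafts, against 10.05, 10.06, 8.57 and 7.44 in early grafts (-3.30 ± 0.58, adjusted p 0.0372). Mmp8, the neutrophil collagenase, had 2.04, 1.64, 1.78 and 1.87 in late grafts, against 4.75, 4.80, 4.31 and 3.02 in early grafts (-2.38 ± 0.34, adjusted p 0.0242). The late values of Mmp8 lie below the array medians of 2.91 to 2.94. No detection calls were used here, so whether levels at or below those medians were above background is unknown, and the size of such a difference is uncertain. Csf3r, the receptor for G-CSF and a defining neutrophil marker, was not called, with 5.80, 5.65, 4.73 and 4.86 in late grafts, against 6.40, 6.61, 7.02 and 5.68 in early grafts (adjusted p 0.121). The call of S100a8 stood in 5 of the 8 fits with 1 array left out and was lost without PSI of day 10, PSI-F of day 1 or PSI of day 1, where its adjusted p reached 0.066. Mmp8 kept its call in 2 of these fits, without PSI-F of day 7 or PSI of day 3, and S100a9 and Lcn2 in 1, without PSI of day 3. With day as a random block, S100a9 (adjusted p 0.0707) and Lcn2 (adjusted p 0.0551) lost their calls.

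Saa1 and Saa2 are neighbouring genes of serum amyloid A, an acute phase protein, with start sites 8.85 kb apart, and 79.1% of their printed promoter bases are the same at an offset of 1 base. Saa1 had levels of 2.59, 1.87, 1.18 and 1.86 in late grafts, against 6.25, 6.22, 5.01 and 4.90 in early grafts, and fell by 3.72 ± 0.38 (adjusted p 0.00779). Saa2 had 2.16, 2.10, 1.43 and 1.69 in late grafts, against 4.46, 4.45, 3.10 and 3.24 in early grafts, and fell by 1.97 ± 0.33 (adjusted p 0.0348). In both, the arrays of day 1 were the highest and those of day 3 came next. The genes are close copies, so their probe sets may share signal. Their late levels were below the median of an array, so the sizes of both differences are uncertain, and the biopsies were at 3.25 in Diabetic and 1.56 in Control for Saa1. Saa3, the member made mostly outside the liver, had 9.22, 8.10, 6.42 and 7.50 in late grafts, against 10.15, 9.93, 11.19 and 9.86 in early grafts and was not called (adjusted p 0.0664). Ptx3, a long pentraxin that binds microbes and complement, had 5.22, 5.03, 4.21 and 4.80 in late grafts, against 6.70, 6.65, 7.49 and 6.48 in early grafts (-2.01 ± 0.26, adjusted p 0.0172), while its dimmer probe set had 0.25 (adjusted p 0.428). Cfp, properdin of the alternative complement pathway, fell by 0.88 ± 0.12 (adjusted p 0.0229). Saa1 kept its call with each array left out, Ptx3 lost it without PSI of day 10, PSI-F of day 1 or PSI of day 1, and Saa2 and Cfp kept it in only 2 of these 8 fits, Saa2 without PSI-F or PSI of day 3 and Cfp without PSI-F of day 7 or PSI of day 3.

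The called genes of the next sentences belong to no list and were picked after their values were seen, so they say nothing of a pathway. Cebpd, a C/EBP factor of the acute phase, had levels of 6.83, 6.65, 7.01 and 6.91 in late grafts, against 8.30, 7.77, 8.25 and 7.85 in early grafts, and fell by 1.19 ± 0.15 (adjusted p 0.0141, called with each array left out). The Diabetic biopsy was higher still for Cebpd, at 9.78, and Control was at 6.55. Il6st, the shared gp130 receptor chain, fell by 0.60 ± 0.11 (adjusted p 0.0487), and Osmr, the oncostatin M receptor, by 1.05 ± 0.18 (adjusted p 0.035). Slc39a14, a zinc importer that inflammation induces, fell by 1.02 ± 0.18 (adjusted p 0.0414), Lrg1, a secreted acute phase glycoprotein, by 1.45 ± 0.19 (adjusted p 0.0172) and Serpina3n, a serine protease inhibitor, by 2.22 ± 0.33 (adjusted p 0.0245). The calls of Il6st, Osmr and Slc39a14 stood in 1 of the 8 fits with 1 array left out, Il6st without PSI-F of day 7, Osmr without PSI of day 3 and Slc39a14 without PSI-F of day 3, and all 3 were lost with day as a random block (adjusted p 0.0624 to 0.0711). Serpina3n kept its call in 3 of them (without PSI-F of day 7, PSI-F of day 1 or PSI of day 3) and Lrg1 in all but those without PSI of day 7, PSI of day 10 or PSI of day 1. Il6 was not called, at 2.0, 2.16, 1.14 and 2.94 in late grafts, against 3.12, 4.06, 6.47 and 3.76 in early grafts (-2.29 ± 0.65, adjusted p 0.135). Its early PSI-F graft of day 3 stood above the rest.

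Of 19 genes of chemokines for monocytes and lymphocytes, 3 fell and none rose (median -0.18), where 0.671% of all genes were called lower. Ccl9 and Ccl6 attract monocytes and other cells through Ccr1. Ccl9 had levels of 7.82, 7.31, 7.34 and 7.44 in late grafts, against 9.93, 10.09, 9.63 and 9.52 in early grafts, and fell by 2.31 ± 0.16, with the smallest adjusted p among the chemokines (0.00165). Ccl6 had 8.74, 7.97, 8.13 and 8.49 in late grafts, against 9.99, 10.35, 10.45 and 10.40 in early grafts, and fell by 1.97 ± 0.18 (adjusted p 0.00621). Both had a wide gap between the groups, their second probe sets were also called, and both kept their calls with each array left out. In both, the late levels stayed above the biopsies (for Ccl9, 6.25 in Diabetic and 5.79 in Control). The receptor Ccr1 had 5.17, 4.59, 3.06 and 3.79 in late grafts, against 6.64, 6.76, 6.86 and 5.91 in early grafts (-2.39 ± 0.41, adjusted p 0.035). Ccl7, a ligand of Ccr2 on monocytes, had 5.04, 4.14, 3.16 and 4.81 in late grafts, against 8.04, 7.58, 6.66 and 5.86 in early grafts (-2.75 ± 0.51, adjusted p 0.0467). Ccl2, the main ligand of that receptor, had 6.34, 4.93, 3.68 and 5.41 in late grafts, against 8.21, 7.96, 7.51 and 6.32 in early grafts and was not called (adjusted p 0.0808). Without 1 array, Ccr1 was called only without PSI-F of day 7 or PSI of day 3, and Ccl7 only without PSI of day 3, and both were lost with day as a random block (adjusted p 0.0542 for Ccr1 and 0.0703 for Ccl7). Cxcl9, an interferon-gamma induced ligand for T cells, was the list's largest positive value at 2.64 ± 0.68, with 9.39, 7.43, 6.33 and 8.41 in late grafts, against 5.38, 4.40, 4.48 and 6.73 in early grafts, and did not pass (adjusted p 0.103).

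Of 8 genes of chemokines for neutrophils, 1 fell and none rose (median -1.73), where 0.671% of all genes were called lower. Cxcl3 had levels of 1.76, 1.93, 0.86 and 0.93 in late grafts, against 4.71, 5.74, 5.81 and 2.61 in early grafts, and fell by 3.35 ± 0.64 (adjusted p 0.0483). The late levels of Cxcl3 were below the array medians, so the size is uncertain. The early PSI graft of day 3 was the lowest early value of Cxcl3, and leaving out any array other than that one ended the call (adjusted p up to 0.142), as did day as a random block (adjusted p 0.0798). Cxcl1 (-2.08, adjusted p 0.135), Cxcl2 (-2.53, adjusted p 0.121) and Cxcl5 (-2.94, adjusted p 0.113), all ligands of Cxcr2, had differences of like size without passing. For Cxcl2 the late levels were 5.81, 5.75, 3.30 and 4.66, against 7.20, 8.20, 8.53 and 5.71 in early grafts, where PSI of day 3 lay below both late arrays of day 7.

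Chil3, a chitinase-like protein of activated macrophages, neutrophils and their precursors, had the largest measured difference of the called genes. Its levels were 3.41, 2.94, 2.15 and 1.46 in late grafts, against 8.86, 8.60, 8.93 and 5.67 in early grafts. It fell by 5.52 ± 0.71 (adjusted p 0.0172), and 3 of the 4 early arrays lay between 8.60 and 8.93 while PSI of day 3 was far below them. Its late levels lie on both sides of the array medians, so the size is uncertain, and the biopsies were at 2.69 in Diabetic and 1.12 in Control. The call was lost without PSI-F or PSI of day 10 and without PSI-F or PSI of day 1 (adjusted p up to 0.0711).

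Arg1 and Retnla are listed with Chil3 as genes that interleukin 4 induces in macrophages, and they had opposite signs. Arg1, the arginase that draws arginine away from nitric oxide synthesis, had 6.95, 5.87, 6.07 and 5.32 in late grafts, against 8.64, 8.76, 10.49 and 8.92 in early grafts (-3.15 ± 0.44, adjusted p 0.0223). Retnla, a resistin-like protein, had 7.57, 7.06, 8.20 and 8.11 in late grafts, against 6.06, 6.04, 5.56 and 5.85 in early grafts, and rose by 1.86 ± 0.24 (adjusted p 0.0175). The levels of Retnla in both biopsies, 7.37 and 7.44, were like those of the late grafts, and the 4 early grafts lay below them. Of 15 genes of alternative macrophage activation, 2 fell and 1 rose (median -0.13), where 0.671% and 0.176% of all genes were called lower and higher. The test was not passed by the other 12. The median was -0.89 over members with a mean level of at least 4. Arg1 kept its call in 3 of the 8 fits with 1 array left out (without PSI-F of day 7, PSI-F of day 3 or PSI of day 3), and Retnla in 6 (all but those without PSI of day 10 or PSI of day 1).

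Of 20 genes of monocytes and macrophages, 1 fell and none rose (median -0.48), where 0.671% of all genes were called lower. The called gene was Itgam, the CD11b chain of the complement receptor on myeloid cells. It had levels of 2.81, 2.77, 1.62 and 2.38 in late grafts, against 5.30, 5.47, 5.58 and 4.54 in early grafts, and fell by 2.83 ± 0.30 (adjusted p 0.00882, called with each array left out). The late levels of Itgam were below the array medians, so the size is uncertain. The markers that define macrophages were not called. Adgre1, the classical surface marker, had 7.35, 6.96, 5.85 and 6.16 in late grafts, against 7.48, 6.87, 7.56 and 7.23 in early grafts (adjusted p 0.313). Csf1r, the receptor for M-CSF, had 9.56, 9.48, 9.09 and 9.09 in late grafts, against 8.92, 8.68, 10.21 and 9.71 in early grafts (adjusted p 0.933). Cd68 had 7.53, 7.04, 6.59 and 6.55 in late grafts, against 7.92, 7.68, 8.23 and 7.97 in early grafts (adjusted p 0.0649). All 3 stayed above both biopsies in the 8 grafts, with Adgre1 at 4.05 in Diabetic and 4.22 in Control. Fcgr1 and Msr1, an IgG receptor and a scavenger receptor, had differences of -2.25 (adjusted p 0.0713) and -2.16 (adjusted p 0.0715). Dimmer probe sets of Msr1 were called at -1.80 (adjusted p 0.0451) and -2.12 (adjusted p 0.0217), and another had -1.91 (adjusted p 0.0561). C1qb, a complement chain made by resident macrophages, had 1.03 (adjusted p 0.345). The median level of the macrophage list ranged from 6.07 to 7.57 over late and from 6.93 to 7.69 over early grafts, and its part in the other myeloid differences was not tested.

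Of 15 Toll-like receptors and adaptors, 3 fell and none rose (median -0.64), where 0.671% of all genes were called lower. Tlr4, the receptor for endotoxin, had levels of 3.85, 3.81, 3.45 and 3.79 in late grafts, against 5.20, 5.11, 5.34 and 5.11 in early grafts. It fell by 1.47 ± 0.12 (adjusted p 0.00241), a dimmer probe set by 1.68 (adjusted p 0.0332), and the call stood with each array left out. Its other probe sets had -0.15 and -0.01 and were not called. Myd88, the adaptor of most Toll-like receptors, fell by 0.69 ± 0.12 (adjusted p 0.0382), and Irak3, which restrains that pathway, by 0.80 ± 0.14 (adjusted p 0.0416). With 1 array left out, Myd88 was called in 1 of 8 fits (without PSI of day 3) and Irak3 in none, and with day as a random block neither was called (adjusted p 0.0641 for Myd88 and 0.0677 for Irak3). C5ar1, the receptor for the complement fragment C5a, had 4.24, 4.13, 3.48 and 3.20 in late grafts, against 5.92, 5.85, 6.28 and 5.52 in early grafts (-2.13 ± 0.25, adjusted p 0.0108), and lost its call only without PSI of day 1. Also picked after their values were seen, and in no list, were Alox5ap, needed to make leukotrienes, and the leukotriene receptors Cysltr1 and Ltb4r1. Their differences were -1.47 (adjusted p 0.0409) for Alox5ap, -1.29 (adjusted p 0.0341) for Cysltr1 and -0.90 (adjusted p 0.0434) for Ltb4r1, each called in 1 of the 8 fits with 1 array left out, Alox5ap and Cysltr1 without PSI-F of day 7 and Ltb4r1 without PSI of day 3, and none with day as a random block (adjusted p 0.0551 to 0.0718). Among apoptosis regulators, 1 of 18 fell, Casp4, the inflammatory caspase that senses endotoxin inside cells (-0.87 ± 0.16, adjusted p 0.0425, called in 1 of those 8 fits, without PSI of day 3, and not with the day block, adjusted p 0.0703). Il1b, the interleukin released through inflammasomes, had 6.0, 5.91, 5.10 and 5.86 in late grafts, against 7.03, 7.78, 8.04 and 5.74 in early grafts and was not called (adjusted p 0.167). With limma, 0 of 18 inflammatory cytokine genes were called (median -0.26, or -0.66 within PSI-F), with 7 at an unadjusted p under 0.05. Of the other largest negative differences, Prg4, a lubricating proteoglycan, had 6.68, 5.30, 4.68 and 5.01 in late grafts, against 8.71, 8.85, 7.91 and 7.65 in early grafts (-2.86 ± 0.43, adjusted p 0.0248, called only without PSI-F of day 7 or PSI of day 3 among the 8 fits). Bst1, a cell surface enzyme of myeloid and stromal cells, had 3.77, 3.52, 2.55 and 2.91 in late grafts, against 5.80, 5.76, 5.71 and 5.01 in early grafts (-2.38 ± 0.28, adjusted p 0.0112, lost only without PSI of day 1).

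**Figure D3:**
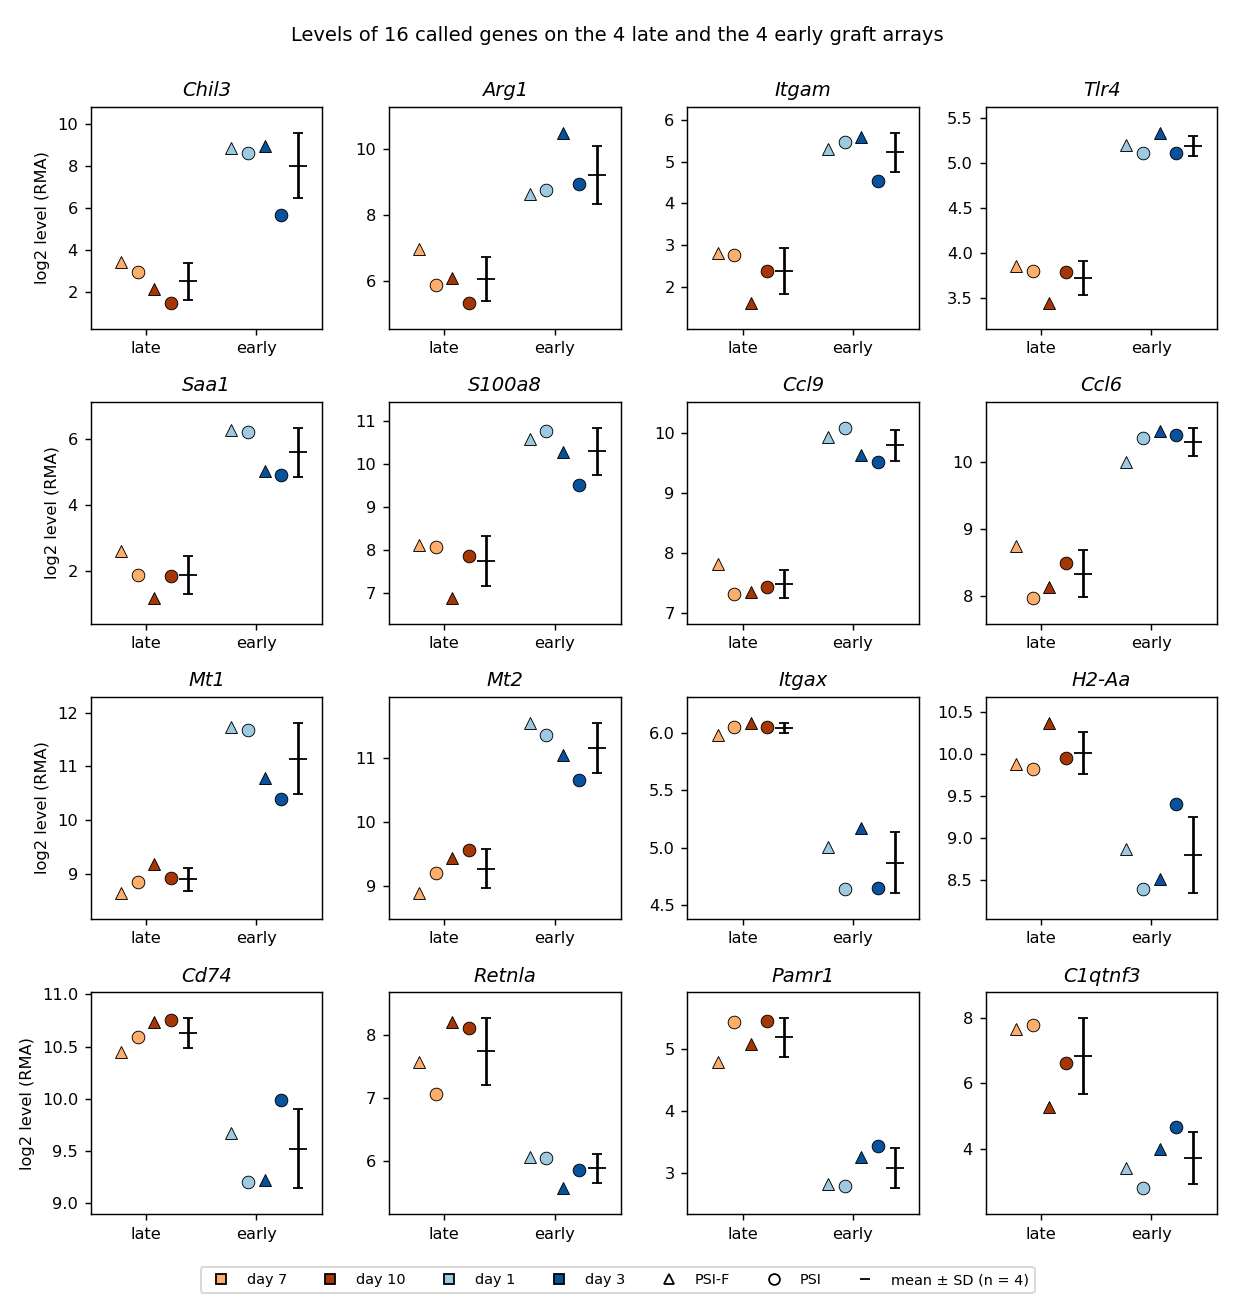
Log2 levels of 16 called genes on each late array (left) and each early array (right), with triangles for PSI-F, circles for PSI, colours for the day and bars for the mean ± SD of 4 arrays. The groups do not overlap in any panel, Itgax is nearly level over the 4 late arrays (5.98 to 6.09), and Chil3 on PSI of day 3 (5.67) stands apart from the other early arrays.

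Metallothioneins bind zinc and copper and are induced by metals, glucocorticoids and inflammation. Of 13 genes of metallothioneins and oxidative stress, 2 fell and none rose (median -0.50), where 0.671% of all genes were called lower. Both called genes were metallothioneins, whose start sites lie 6.47 kb apart. Mt2 had levels of 8.89, 9.20, 9.44 and 9.57 in late grafts, against 11.54, 11.35, 11.04 and 10.65 in early grafts, and fell by 1.87 ± 0.21 (adjusted p 0.0103). Mt1 had 8.65, 8.86, 9.19 and 8.92 in late grafts, against 11.74, 11.67, 10.78 and 10.40 in early grafts, and fell by 2.24 ± 0.29 (adjusted p 0.0172). In both, day 1 was above day 3, and both late arrays of day 7 were below those of day 10 for Mt2. The biopsies differed between themselves, with Mt1 at 10.71 in Diabetic and 8.25 in Control. Mt2 lost its call only without PSI of day 1, and Mt1 lost it without PSI of day 7, PSI of day 10 or PSI of day 1. Hmox1, the heme oxygenase of the same list, had 7.09, 6.07, 5.59 and 5.50 in late grafts, against 6.50, 7.0, 9.30 and 8.47 in early grafts, and was not called (adjusted p 0.198). Among 16 glucocorticoid and fasting targets, 2 fell, Mt2 and Lcn2 (median -0.14), and Fkbp5, a defining glucocorticoid target, had a difference of -1.08 (adjusted p 0.0573) with the Diabetic biopsy at 8.39, and its second probe set was called (-0.95, adjusted p 0.0492).

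The largest called positive differences included several secreted proteins of connective tissue. Pamr1, a secreted protein with a protease-like domain named for regenerating muscle, had levels of 4.78, 5.42, 5.07 and 5.44 in late grafts, against 2.82, 2.78, 3.26 and 3.43 in early grafts. It rose by 2.11 ± 0.19 (adjusted p 0.00626), called with each array left out, and lay above both biopsies (3.49 and 3.68). C1qtnf3, a C1q-like adipokine, had 7.66, 7.76, 5.28 and 6.62 in late grafts, against 3.41, 2.78, 3.98 and 4.66 in early grafts, and rose by 3.12 ± 0.56 (8.71-fold, adjusted p 0.041), with its highest values on day 7. Islr, a leucine-rich protein of stromal cells, had 6.84, 7.63, 6.97 and 7.19 in late grafts, against 4.52, 5.12, 5.37 and 5.83 in early grafts (1.95 ± 0.27, adjusted p 0.021). Mfap4, which binds elastic fibres, rose by 1.71 ± 0.30 (adjusted p 0.0364), and Fndc1, a fibronectin-domain protein, by 1.61 ± 0.26 (adjusted p 0.0321), with -0.03 at its dimmer probe set. In Islr, Mfap4 and Fndc1 the day 3 arrays lay above the day 1 arrays. Without 1 array, Mfap4 and Fndc1 were called only without PSI of day 3, C1qtnf3 only without PSI-F of day 10 or PSI of day 3, and Islr without PSI-F of day 7, PSI-F of day 1 or PSI of day 3. Ssc5d, a soluble scavenger receptor, rose by 1.14 ± 0.19 (adjusted p 0.0348), Ptgds, the prostaglandin D synthase, by 1.29 ± 0.24 (adjusted p 0.0471) and Depp1, a gene induced on fasting and hypoxia, by 0.95 ± 0.14 (adjusted p 0.0258). With day as a random block, C1qtnf3, Mfap4, Ssc5d and Ptgds lost their calls (adjusted p 0.0554 to 0.0761). The Diabetic biopsy had the highest Depp1 level, 8.59. Ssc5d and Ptgds were called in 2 of the 8 fits, without PSI of day 7 or PSI of day 3, and Depp1 in 3, without PSI of day 10, PSI-F of day 1 or PSI of day 3.

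Of 18 collagen genes, all 18 had a positive difference (median 0.92), as did 52.0% of all genes. The list's median level was 7.27 and 7.42 on day 1 (PSI-F, then PSI) and 8.39 and 8.24 on day 3. On day 7 it was highest, at 8.94 and 9.33, and on day 10 it was 8.29 and 8.50, so the sets overlapped. Of the 18 genes, 1 was called, where 0.176% of all genes were called higher. It was Col16a1, a fibril-associated collagen, with 7.95, 7.87, 7.78 and 7.31 in late grafts, against 6.55, 6.65, 6.89 and 7.01 in early grafts (0.95 ± 0.16, adjusted p 0.035, kept in 2 of the 8 fits, without PSI of day 10 or PSI of day 3, and lost with day as a random block, adjusted p 0.0551). Col1a1, the main fibrillar collagen, had 12.35, 12.36, 11.91 and 11.86 in late grafts, against 9.75, 10.57, 11.46 and 11.36 in early grafts. Its early values were split by day, and the difference of 1.33 ± 0.34 did not pass (adjusted p 0.104). Col3a1 had 12.60, 12.65, 12.45 and 12.50 in late grafts, against 11.51, 11.73, 12.52 and 12.40 in early grafts, so day 3 was already near the late level (adjusted p 0.296). With limma, 0 of 19 matricellular genes were called (median 0.55, or 1.13 without day 3 and 1.10 without day 10, 7 at an unadjusted p under 0.05), with Cthrc1 at 2.12 (adjusted p 0.143) and Aspn at 1.89 (adjusted p 0.0552). Of 20 matrix proteases and inhibitors, 2 fell, Mmp8 and Adam8, where 0.671% of all genes were called lower. Adam8, a metalloprotease of leukocytes, had -1.69 ± 0.28 (adjusted p 0.0333). Among the 8 fits Adam8 was called only without PSI-F of day 7 or PSI of day 3. It was not called with the day block (adjusted p 0.0531), and Timp1 had -2.06 (adjusted p 0.103). Of 14 genes of myofibroblasts and smooth muscle (median 0.48, or 0.16 without day 7 and 0.74 without day 10), 1 rose, Notch3, the Notch receptor of mural cells, with 7.16, 7.0, 7.19 and 7.13 in late grafts, against 6.37, 6.46, 6.48 and 6.33 in early grafts (0.71 ± 0.09, adjusted p 0.0164). Notch3 was lost without PSI-F of day 10, PSI of day 10 or PSI of day 1. Acta2, smooth muscle actin, had 0.47 (adjusted p 0.305). For Rgs5, a pericyte marker, the brightest probe set gave 0.49 (adjusted p 0.313), while the dimmest of its 4 gave 1.33 and was called (adjusted p 0.0494).

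Of 15 genes of MHC class II and dendritic cells, 4 rose and none fell, where 0.176% of all genes were called higher. Of the 15, called or not, 9 had a positive and 6 a negative difference. The list median was 0.36, or 0.90 over members with a mean level of at least 4 and 0.11 without both arrays of day 3. H2-Aa, the MHC class II alpha chain whose promoter is printed above, had levels of 9.87, 9.82, 10.37 and 9.95 in late grafts, against 8.86, 8.39, 8.51 and 9.40 in early grafts (1.22 ± 0.22, adjusted p 0.041), and its 3 other probe sets had positive differences, 1 of them called. H2-Ab1, its beta chain, had 8.81, 8.50, 8.98 and 8.67 in late grafts, against 7.91, 7.21, 7.54 and 8.02 in early grafts (1.07 ± 0.18, adjusted p 0.0356). Cd74, the invariant chain that guards the peptide groove, had 10.45, 10.59, 10.73 and 10.75 in late grafts, against 9.68, 9.20, 9.22 and 9.98 in early grafts (1.11 ± 0.18, adjusted p 0.0313). In all 3 the early PSI graft of day 3 was the highest of its set. Itgax, the CD11c chain of dendritic cells and some macrophages, had 5.98, 6.05, 6.09 and 6.05 in late grafts, against 5.0, 4.64, 5.17 and 4.65 in early grafts, and rose by 1.18 ± 0.13 (adjusted p 0.0103, called with each array left out). Cd83, a marker of mature dendritic cells, rose by 1.34 ± 0.22 (adjusted p 0.0333). All 5 genes lay above both biopsies on the late arrays. H2-Eb1, another beta chain, was not called (0.36 ± 0.71, adjusted p 0.856), and its levels of 5.57, 7.80, 6.20 and 8.22 in late grafts, against 7.30, 6.78, 4.75 and 7.52 in early grafts, followed neither set. Without 1 array, H2-Aa, H2-Ab1 and Cd83 were called only without PSI of day 3, and Cd74 also without PSI-F of day 7. With day as a random block, Itgax kept its call (adjusted p 0.0193), and H2-Aa (adjusted p 0.069), H2-Ab1 (adjusted p 0.0632), Cd74 (adjusted p 0.0531) and Cd83 (adjusted p 0.0553) lost theirs. With limma, 0 of 16 genes of T and NK cells were called (median 0.22, 2 at an unadjusted p under 0.05) and 0 of 9 genes of B and plasma cells (median 0.43, or 0.18 without day 10 and 1.58 over members with a mean level of at least 4, 4 at an unadjusted p under 0.05). Jchain, the joining chain of secreted antibody, was at 4.55 and 4.19 on the PSI-F and PSI arrays of day 10 and between 0.93 and 1.28 on the other 6 graft arrays, and Ighm was at 10.10 and 8.81 on day 10 and between 5.83 and 7.53 on those 6.

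**Figure D4:**
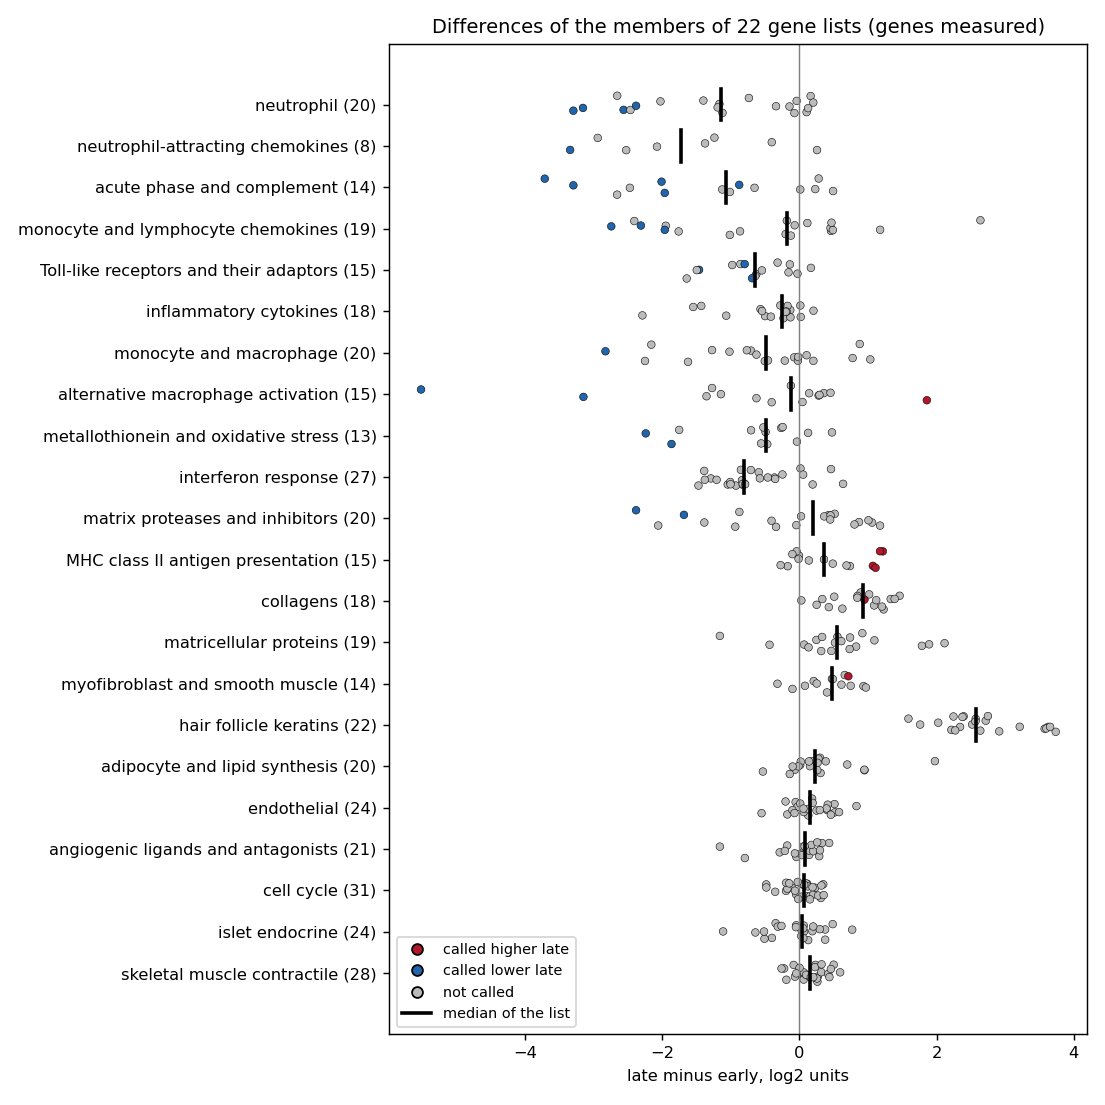
Late minus early difference of each measured member of 22 gene lists, in log2 units, with called genes in red (higher) and blue (lower), the others in grey and the list median as a black bar. The medians of the neutrophil, neutrophil-attracting chemokine and acute phase lists lie below -1, the monocyte and lymphocyte chemokines lie on both sides of 0, all 18 collagens lie at or to the right of 0, and the hair keratins are the farthest right (median 2.57) with no call.

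With limma, 0 of 24 endothelial genes were called (median 0.16, 3 at an unadjusted p under 0.05) and 0 of 21 angiogenic ligands and antagonists (median 0.07, 4 at an unadjusted p under 0.05). Pecam1 (CD31) had 5.61, 6.10, 5.35 and 5.10 in late grafts, against 5.43, 5.34, 5.90 and 5.72 in early grafts (-0.06 ± 0.21, adjusted p 0.93). Kdr and Cdh5, the VEGF receptor and the cadherin of endothelium, had -0.03 (adjusted p 0.971) and 0.25 (adjusted p 0.705), and Vegfa had 0.0 (adjusted p 0.998). For Kdr and Cdh5 both arrays of day 7 stood above both of day 10. Among 6 genes of lymphatic endothelium, 2 fell, where 0.671% of all genes were called lower. The list median was -0.11, or -0.30 without day 10 and -1.29 over members with a mean level of at least 4. Lyve1, a hyaluronan receptor also found on resident macrophages, had 3.23, 3.28, 3.45 and 3.77 in late grafts, against 4.82, 4.64, 5.63 and 5.18 in early grafts (-1.64 ± 0.21, adjusted p 0.0177, lost without PSI of day 7 or PSI-F of day 10). Pdpn, podoplanin, which activated fibroblasts and macrophages also carry, fell by 1.29 ± 0.21 (adjusted p 0.0333, kept in 2 of 8 fits, without PSI-F of day 7 or PSI of day 3, and lost with the day block, adjusted p 0.0525). Prox1, the factor that defines lymphatic endothelium, was below the array medians throughout, with 1.38, 1.20, 1.52 and 1.52 in late grafts, against 1.43, 1.45, 1.50 and 1.81 in early grafts.

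The list with the largest median difference had no call. All 22 hair keratin genes had a positive difference, with a median of 2.57, a median within PSI-F of 4.99 and within PSI of 0.29, and by limma 0 were called, with 7 at an unadjusted p under 0.05. Krt33a, a keratin of the hair shaft, had 9.02, 5.70, 10.83 and 10.86 in late grafts, against 4.0, 5.23, 2.68 and 9.55 in early grafts. The early PSI graft of day 3 was thus above the late PSI graft of day 7, and the biopsies were at 10.35 and 10.99. Foxn1, the factor mutated in nude mice and active in the hair follicle, had 1.98 ± 0.78 (adjusted p 0.264). By limma 0 of 28 skeletal muscle contractile genes were called (median 0.15, 0 at an unadjusted p under 0.05), and Ckm, muscle creatine kinase, had 12.20, 12.30, 12.23 and 12.21 in late grafts, against 12.33, 12.25, 11.26 and 12.16 in early grafts. Among 18 genes of muscle regeneration 1 fell, Myog, where 0.671% of all genes were called lower. Myog, the factor of differentiating myoblasts, had 3.53, 3.95, 3.49 and 3.40 in late grafts, against 5.36, 4.91, 5.37 and 4.29 in early grafts. Its difference was -1.39 ± 0.24 (adjusted p 0.0348). Myog was called only without PSI of day 3 among the 8 fits, and not with the day block (adjusted p 0.0602). Myh3, embryonic myosin, was at 6.89 on the PSI array of day 7 and between 1.45 and 3.49 on the other 7 graft arrays. By limma 0 of 20 adipocyte genes were called (median 0.22, 3 at an unadjusted p under 0.05), with Pck1 at 1.98 (adjusted p 0.0561) and Adipoq at 0.95 (adjusted p 0.224).

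By limma 0 of 27 interferon response genes were called (median -0.80, 2 at an unadjusted p under 0.05). Without both arrays of day 1 the median was 0.30, of the opposite sign. Mx1 had 4.48, 3.43, 3.57 and 3.12 in late grafts, against 7.05, 6.19, 2.48 and 4.05 in early grafts, and Irf7 had 6.79, 5.45, 6.29 and 5.18 in late grafts, against 8.47, 8.04, 4.45 and 6.77 in early grafts. In both, day 1 held the highest graft levels and PSI-F of day 3 the lowest. By limma 0 of 31 cell cycle genes were called (median 0.06, 3 at an unadjusted p under 0.05), and Mki67, the proliferation antigen, had 6.78, 7.50, 7.55 and 7.72 in late grafts, against 6.44, 7.72, 7.41 and 7.63 in early grafts.

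Islet genes were read from rat tissue by mouse probes. By limma 0 of 24 were called (median 0.04, 5 at an unadjusted p under 0.05). Ins2, an insulin gene, had 9.95, 10.16, 9.40 and 7.70 in late grafts, against 10.59, 10.60, 8.67 and 8.95 in early grafts (-0.40 ± 0.61, adjusted p 0.8), and 3.13 and 2.27 in the Diabetic and Control biopsies. The late PSI graft of day 10 was the lowest of the 8 grafts. Sst, somatostatin, had 3.67, 3.58, 3.33 and 3.29 in late grafts, against 4.40, 5.59, 3.83 and 4.51 in early grafts (adjusted p 0.126). Gcg, glucagon, was between 0.88 and 1.54 on all 8, below the median of an array. Of the other genes that the study named, Reg1 and Reg3g, secreted proteins of injured pancreas, were at most 2.22 on late arrays and reached 4.80 and 5.05 on the early PSI-F array of day 3 (adjusted p 0.814 and 0.483). Chil1, a chitinase-like protein, had 5.46, 7.14, 7.37 and 7.56 in late grafts, against 7.22, 6.93, 8.37 and 6.73 in early grafts (adjusted p 0.718). Single called members of other lists were Nog, an antagonist of BMPs (-0.84 ± 0.14, adjusted p 0.0356, with late levels of 2.18 to 2.23), and Plin2, a coat protein of lipid droplets (-0.85 ± 0.14, adjusted p 0.0333), both called only without PSI of day 3 among the 8 fits and lost with the day block (adjusted p 0.0648 for Nog and 0.0526 for Plin2).

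The order of the days within each set was counted for the called genes. The mean of both grafts was lower on day 10 than on day 7 in 88 of 122 lower genes, against 4192 of 8741 genes with any negative difference, and lower on day 3 than on day 1 in 78 of 122, against 4688 of 8741. In 60 of the 122 (49.2%) the mean fell at each step over days 1, 3, 7 and 10, as it did in 11.6% of the 8741. Among the 32 higher genes, 14 were higher on day 10 than on day 7 and 24 were higher on day 3 than on day 1, against 3901 and 5495 of 9452 genes with a positive difference. In 8 of the 32 (25%) the mean rose at each step, as it did in 10.2% of the 9452. The 2 directions were not tested against each other. The step between days 3 and 7 was the largest, with a median of -0.97 for the lower and 0.88 for the higher genes. These shares are descriptions, since the calls favour genes with little spread within a set. The sets of the called genes did not overlap, so their step between days 3 and 7 had to go in the called direction. The genes compared with them were not chosen in this way. The size of that step and the shares moving at each step therefore follow in part from the choice.

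Against the biopsies, the late mean of the 122 lower genes was above both in 54, between them in 44 and below both in 24, while their early mean was above both in 110. Ccl9, Itgam and C5ar1 were among the genes still above both biopsies late. For Itgam the late levels and both biopsies (1.52 in Diabetic and 1.28 in Control) lay below the array medians, so that comparison is uncertain. The late mean of the 32 higher genes was above both biopsies in 25 and below both in 2, and their early mean was below both in 18. Each biopsy is 1 array of subcutaneous tissue with no graft, and the late arrays differ from both in the poly-A controls.

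The late minus early difference was also compared between PSI-F and PSI. Within PSI-F the 122 lower genes had a median of -1.16 and within PSI of -1.04, and the 32 higher genes 0.93 and 0.85. With limma, 0 of 45037 probe sets (0%) differed between the graft types in their late minus early difference, with 636 at an unadjusted p under 0.05 (1.41%). The smallest unadjusted p among genes was that of Krt35, a hair keratin, with a difference of 6.55 in PSI-F and 0.71 in PSI (p 0.00113 by limma, adjusted p 1). Next were Apold1, an endothelial early response gene (-0.86 and 0.39), and Nr4a1, an immediate early nuclear receptor (-0.05 and 1.27). Fos, the immediate early factor, had 7.82 and 8.09 in late PSI-F and 8.92 and 10.21 in late PSI grafts, against 9.11 and 9.53 in early PSI-F and 8.33 and 7.66 in early PSI grafts, so its late minus early difference was -1.37 in PSI-F and 1.57 in PSI (limma adjusted p 1). Hoxb6 had 0.38 and -0.61. Each graft type has 2 late and 2 early arrays, so that such differences could be measured only coarsely. Tests of late against early within PSI-F alone and within PSI alone also gave 0 calls, with 2887 and 3511 probe sets at an unadjusted p under 0.05.

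**Figure D5:**
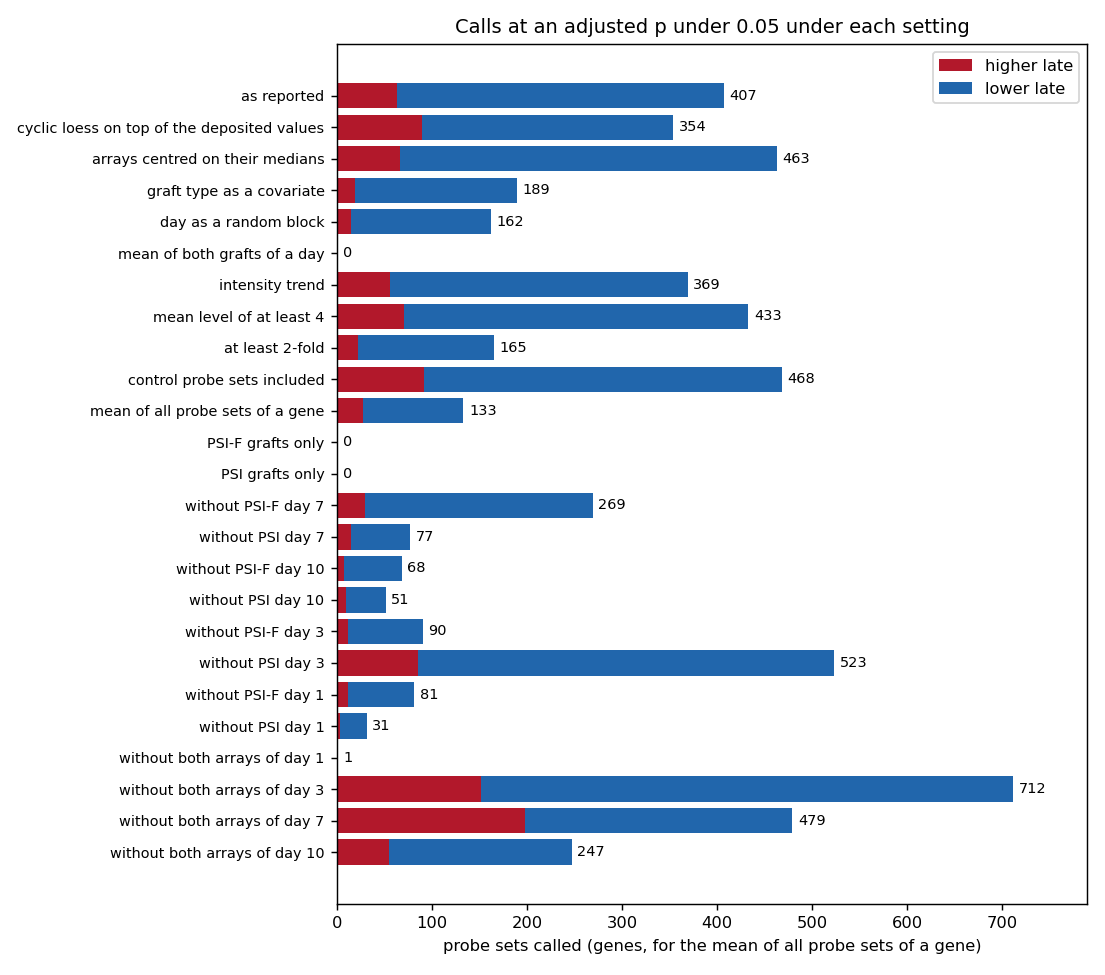
Number of probe sets called higher (red) and lower (blue) in late grafts under each setting, with the total beside each bar. The bar for the mean of a gene's probe sets counts genes. Lower calls outnumber higher ones in every setting with over 1 call, and the totals run between 0 and 712.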

How the data were processed

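RNA of 10 tissue samples was hybridized to Affymetrix GeneChip mouse genome arrays, 1 per condition. The deposited values are log2 levels per probe set, made by the authors with RMA (background correction, quantile normalization and summary, in R 2.15.0 with affy 1.36.0, per the submitters' processing notes). Of 45101 probe sets, 64 controls were left out, 34945 had 1 gene symbol in GEO's platform annotation, 932 several and 9160 none, and 18193 genes were read from the probe set with the highest mean over the 8 grafts. Late minus early was fitted with limma 3.58.1 (lmFit and eBayes, R 4.3.3) on all 45037 remaining probe sets, with Benjamini-Hochberg adjustment and a call at an adjusted p under 0.05. In simulated data the fit recovered 73 of 100 probe sets changed by 1 log2 unit and 93 of 100 changed by 2, with 5 false calls among 45037. The simulated arrays had independent noise and no effects of day, graft type or handling, so these counts need not hold for the real arrays. Errors are SE of the difference unless said. The number of arrays limits the precision.

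Gene lists (52, with 846 of 921 genes measured) are described by counts and medians. The members and lists were chosen with earlier results of these data known. Named genes were the 15 largest called differences in each direction, up to 6 called and 3 defining members of each list described, the genes the study named and the 5 smallest p-values between graft types. Cebpd, Il6st, Osmr, Slc39a14, Lrg1, Serpina3n, C5ar1, the leukotriene genes, Jchain, Ighm, Myh3, Saa3, Fcgr1, Msr1, C1qb, Hmox1, Fkbp5, Cxcl9, Rgs5, Pck1 and the other uncalled list members were chosen after their values were seen, as were the promoter motifs. The CCAAT box had been planned for cell cycle genes only, and its use for H2-Aa was also chosen after values were seen. The 13 genes called with each array left out are named for that reason. Alternatives were cyclic loess (3 iterations), median centring, graft type as a covariate, day as a random block, day means, an intensity trend, a mean level of at least 4, a 2-fold minimum, control probe sets included, the mean of a gene's probe sets, each graft type alone, and each array or day left out. Promoters were found for 121 of the 154 called genes. Tables and figures were made with pandas 2.3.3 and matplotlib 3.10.9 in Python 3.11.15.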

Additional observations from a re-analysis of the deposited data

Results flagged for a closer look

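In 13 of 244 sets of 4 arrays (the late and the early set of each named gene), 1 array stood far from the other 3 by Dixon's test. Chance alone gives about 1 in 20. Among late grafts, the low array was PSI-F of day 10 for Lcn2 (4.72, others 5.97 to 6.21), Tlr4 (3.45, others 3.79 to 3.85) and Il1b (5.10, others 5.86 to 6.0), PSI of day 10 was low for Depp1 (6.34, others 6.72 to 6.75), and PSI of day 7 was high for Myh3 (6.89, others 2.82 to 3.41). Among early grafts, PSI of day 3 was low for Chil3 (5.67, others 8.60 to 8.93) and for Bst1 (5.01, others 5.71 to 5.80) and high for Tagln (7.60, others 7.00 to 7.07). PSI-F of day 3 was high for Arg1 (10.49, others 8.64 to 8.92), Alox5ap (9.22, others 8.42 to 8.49) and Lrg1 (8.60, others 7.89 to 7.96) and low for Ckm (11.26, others 12.16 to 12.33), and PSI-F of day 1 was high for Plin2 (9.48, others 9.02 to 9.04). The 5′ probe set of the thr poly-A control, which was left out of the tests, differed by 2.54 between late and early arrays, with biopsies at 2.33 and 2.83.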

How the results depend on the processing

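The fit as reported had 407 calls. Graft type as a covariate gave 189, day as a random block 162 and a 2-fold minimum 165, and day means, PSI-F grafts only and PSI grafts only gave 0 each with limma (4018, 2887 and 3511 probe sets at an unadjusted p under 0.05). Without both arrays of day 1 there was 1 call, of day 3 there were 712 and of day 10 there were 247, and with 1 array left out between 31 and 523. The 2-fold minimum only removes calls with smaller differences, and for the other settings the cause was not tested. Cyclic loess (354), median centring (463), the intensity trend (369), the level filter (433), control probe sets (468) and leaving out day 7 (479) stayed within 1.5 times the reported count. The mean of a gene's probe sets gave 133 called genes, beside the 154 as reported, and 94 of those 154 kept their calls. Of the 154 called genes, 67 kept their calls with the graft covariate, 66 with the day block, 112 with cyclic loess and 100 without day 3. Of 1530 values of the 64 named called genes under alternatives, 759 passed, 771 kept the direction without passing and 0 reversed. Fits that left out arrays or days, averaged days or used each graft type alone could not reverse a direction, as the sets did not overlap. List medians moved beyond the spread of arrays in 41 of 1196 cases. The comparison of graft types had 0 calls in all 3 fits. No paired analysis was possible because late and early grafts share no replicate number in the labels. Whether levels at or below the array medians were above background is unknown, and folds there are uncertain.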
